A study of Mus musculus with 7 samples.

Results

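Tnf, Cd83, Nfkbie, Nfkbia, Nfkb1, Nfkb2, Rel, Relb, Tnfaip3 and Icam1 were followed across 7 populations of mouse cells. These 10 genes of the tumour necrosis factor (TNF) and NF-kappaB circuit were taken by the gene name printed for each probe, which gave 13 probes among the 34947 gene names on the array. Of the 10, 9 passed a filter on dim probes that left 19758 genes, and Rel did not. They had been picked with their Sdc4+ and Sdc4- signals already known, so those signals are given as a description, with no test.

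The study asked whether the dermal cells that can form muscle descend from satellite cells, the muscle stem cells, and profiled each population on 1 Agilent 60-mer array. Sdc4 encodes syndecan-4, a heparan sulfate proteoglycan on the satellite cell surface. The Sdc4+ group held Myf5SOR+ cells (line B6.129S4-Myf5tm3(cre)Sor/J, with Cre placed in the myogenic gene Myf5), Cspg4- cells (line B6,FVB-Tg(Cspg4-cre)1Akik/J, with Cre under the control of Cspg4, which encodes NG2, a proteoglycan of pericytes) and cells of the outbred stock Crl:CD1(ICR), called CD1. Cspg4+ cells of the Cspg4-cre line carried no Sdc4 label, and the Sdc4- group held B195AP+ cells of the B195AP-Cre strain, whose driver the labels do not name, with Cspg4- and CD1 cells again. Per the labels, 8 to 10 animals stood behind each population, lineage was traced by Cre, and 10 to 200 ng of RNA entered the labelling. The labels give neither the ages, the reporter, nor how the cells were sorted. Each population has a single array, so the spread within a group includes the mouse line.

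NF-kappaB is a family of dimeric transcription factors built from the Rel, Relb, Rela, Nfkb1 and Nfkb2 products and held in the cytoplasm by IkappaB inhibitors. TNF and microbial signals lead to the destruction of the inhibitors, and the freed dimers enter the nucleus and bind kappaB sites. Among the genes they switch on are their own inhibitors and several of their own subunits, so that the response limits itself. In muscle, TNF and NF-kappaB are known as regulators of inflammation and of myogenic differentiation.

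The 250 bases before the annotated start were read for the 7 members with an entry in the RefSeq table of GRCm38.p6 (Tnf, Nfkbie, Nfkbia, Nfkb2, Rel, Tnfaip3 and Icam1), because binding of NF-kappaB to such windows is the textbook feedback step. Both strands were searched for the 10-base kappaB consensus, and matches on opposite strands or offset by 1 base can overlap. A match stood in the windows of 5 of the 7 genes (Nfkbie, Nfkbia, Nfkb2, Rel and Tnfaip3), and in 4.46% of the 27018 genes with such a window. The windows of 3 feedback inhibitors, of the subunit gene Nfkb2 (the first of its 3 starts) and of the ligand gene Tnf are shown 5′ to 3′ on the strand of the gene, with matches in capitals.
Nfkbie (chr17:45555450-45555699, plus strand): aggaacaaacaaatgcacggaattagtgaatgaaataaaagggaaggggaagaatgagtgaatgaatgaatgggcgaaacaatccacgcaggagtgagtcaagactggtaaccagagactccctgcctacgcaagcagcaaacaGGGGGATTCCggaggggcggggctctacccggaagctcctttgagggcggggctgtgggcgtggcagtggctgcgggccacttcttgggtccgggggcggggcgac
Nfkbia (chr12:55492648-55492897, minus strand): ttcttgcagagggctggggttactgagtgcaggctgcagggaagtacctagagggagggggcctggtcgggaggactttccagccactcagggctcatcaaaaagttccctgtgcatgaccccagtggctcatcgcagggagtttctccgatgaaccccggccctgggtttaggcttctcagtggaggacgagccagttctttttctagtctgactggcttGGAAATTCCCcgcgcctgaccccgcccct
Tnfaip3 (chr10:19015411-19015660, minus strand): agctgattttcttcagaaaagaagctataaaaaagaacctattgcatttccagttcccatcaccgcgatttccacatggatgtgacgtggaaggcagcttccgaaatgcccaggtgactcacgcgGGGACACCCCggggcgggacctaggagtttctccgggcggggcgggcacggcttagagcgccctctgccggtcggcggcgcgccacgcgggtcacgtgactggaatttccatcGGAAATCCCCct
Nfkb2 (chr19:46304487-46304736, plus strand): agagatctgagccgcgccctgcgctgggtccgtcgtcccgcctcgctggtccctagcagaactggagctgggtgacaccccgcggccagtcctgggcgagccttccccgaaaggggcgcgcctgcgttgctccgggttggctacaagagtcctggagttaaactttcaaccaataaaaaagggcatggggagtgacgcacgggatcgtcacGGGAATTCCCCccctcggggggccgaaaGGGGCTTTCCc
Tnf (chr17:35202008-35202257, minus strand): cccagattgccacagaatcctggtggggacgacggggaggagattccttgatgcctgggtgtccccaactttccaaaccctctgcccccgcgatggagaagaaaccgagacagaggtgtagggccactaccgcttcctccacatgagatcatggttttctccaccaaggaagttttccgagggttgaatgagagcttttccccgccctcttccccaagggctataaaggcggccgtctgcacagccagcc
The Nfkbia match lay 29 to 20 bases before the start and the Nfkbie match 106 to 97 bases before it. Tnfaip3 had matches 125 to 116 and 12 to 3 bases before the first of its 2 starts. Nfkb2 had overlapping matches 39 to 29 bases before the start and another 11 to 2 bases before it. The letters of the consensus were not found in the Tnf and Icam1 windows, which does not settle whether NF-kappaB binds inside or outside them. Cd83, Nfkb1 and Relb had no entry.

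Signals are given as log2 of the processed intensity minus the array's 75th percentile, so that 1 unit is a 2-fold difference and 0 is the 75th percentile of the spots. All 7 arrays lay on 1 slide and were read in 1 scan, where row 1 held every Sdc4+ array and row 2 the others, so the Sdc4 label and the slide row cannot be told apart. Each array carried 59305 non-control spots, of which 57.2% were well above background for Cspg4+ cells and 45.9% to 50.8% for the other populations. A streaked region of the B195AP+ array held 3 of the 10 Tnf spots and the single Nfkbie and Tnfaip3 spots. A deviation of over 4-fold from the other arrays' median was seen for 7.02% of the bright spots in that region, against 0.787% elsewhere. Sdc4 itself was at 3.80, 6.29 and 6.35 on the Myf5SOR+, Cspg4- and CD1 Sdc4+ arrays, against 1.98, 5.11 and 5.28 on the B195AP+, Cspg4- and CD1 Sdc4- arrays. The Myf5SOR+ array, labelled Sdc4+, thus had less Sdc4 signal than both the Cspg4- and the CD1 array labelled Sdc4-, and was left out together with the B195AP+ array as an alternative. Dermal fibroblast markers (Pdgfra, Col1a1, Col3a1, Dcn, Lum) were well above background on every array. Of 6 satellite cell markers, Cdh15, Itga7, Vcam1 and Sdc4 were too, while Pax7 and Myf5 were not on any. Precision is limited by the number of arrays.

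The probe of Tnf, the secreted cytokine that starts the circuit, was printed 10 times on each array. It read -1.91, 0.40 and -0.60 on the Myf5SOR+, Cspg4- and CD1 Sdc4+ arrays, and -3.62 on the Cspg4+ array. On the B195AP+, Cspg4- and CD1 Sdc4- arrays it read -5.03, -3.95 and -2.49. All Sdc4+ arrays were above all Sdc4- arrays, and the Cspg4- Sdc4+ array was the highest of the 7.

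In processed intensity, before scaling, the Tnf spots averaged 34.8, 170 and 159 on the Myf5SOR+, Cspg4- and CD1 Sdc4+ arrays and 14.7 on the Cspg4+ array, against 5.76, 11.7 and 38.0 on the B195AP+, Cspg4- and CD1 Sdc4- arrays. The 10 spots were well above background on every Sdc4+ array and on the CD1 Sdc4- array. On the Cspg4+ array 5 of the 10 were, on the Cspg4- Sdc4- array 2 and on the B195AP+ array 0. Tnf was therefore measured on 4 arrays, and counted as not well above background on the other 3. Within an array the spots had an SD of 0.0861 to 0.253 log2 units on the arrays other than those of B195AP+ (0.812) and Cspg4+ (0.296) cells. That SD is technical, and with 1 array for each population the error of the order of levels is not known. The 3 arrays not well above background have no order. The 3 B195AP+ spots inside the streaked region read -3.21, -5.59 and -5.87, and the 7 outside it between -5.92 and -4.52.

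Tnf averaged -0.71 ± 1.16 on the Sdc4+ arrays and -3.82 ± 1.27 on Sdc4- arrays (each SD over n = 3). Only 1 of the 3 Sdc4- arrays measured the gene, so the difference of 3.12 between these means rests partly on background values. Each dim array was then set to its own value or to the lowest signal well above background on it, whichever is higher. By this floored fold, Tnf was 6.38-fold higher on the Sdc4+ arrays. A dim signal can lie above that lowest signal, as some Tnf spots did, so a floored fold is not a strict lower bound. In the Cspg4- line the Sdc4- side was not well above background. There Tnf was 19.9-fold higher in the Sdc4+ cells, by a floored fold made the same way. Such floored folds hold for the reported processing only, and under the alternatives the log2 difference in that line was as low as 1.91. In CD1 mice, where both arrays measured the gene, Tnf was 3.70-fold higher in the Sdc4+ cells, a log2 difference of 1.89. Under the alternatives that difference was as low as 0.93. With single arrays left out, the floored fold between the groups lay between 4.35-fold (without the Cspg4- Sdc4+ array) and 9.70-fold (without the Myf5SOR+ array). With normexp background correction, whose offset of 50 intensity units is larger than the dim Tnf signals, the difference of means was 1.18. In bulk RNA, fewer cells of a type and less RNA per cell cannot be told apart.

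**Figure D1:**
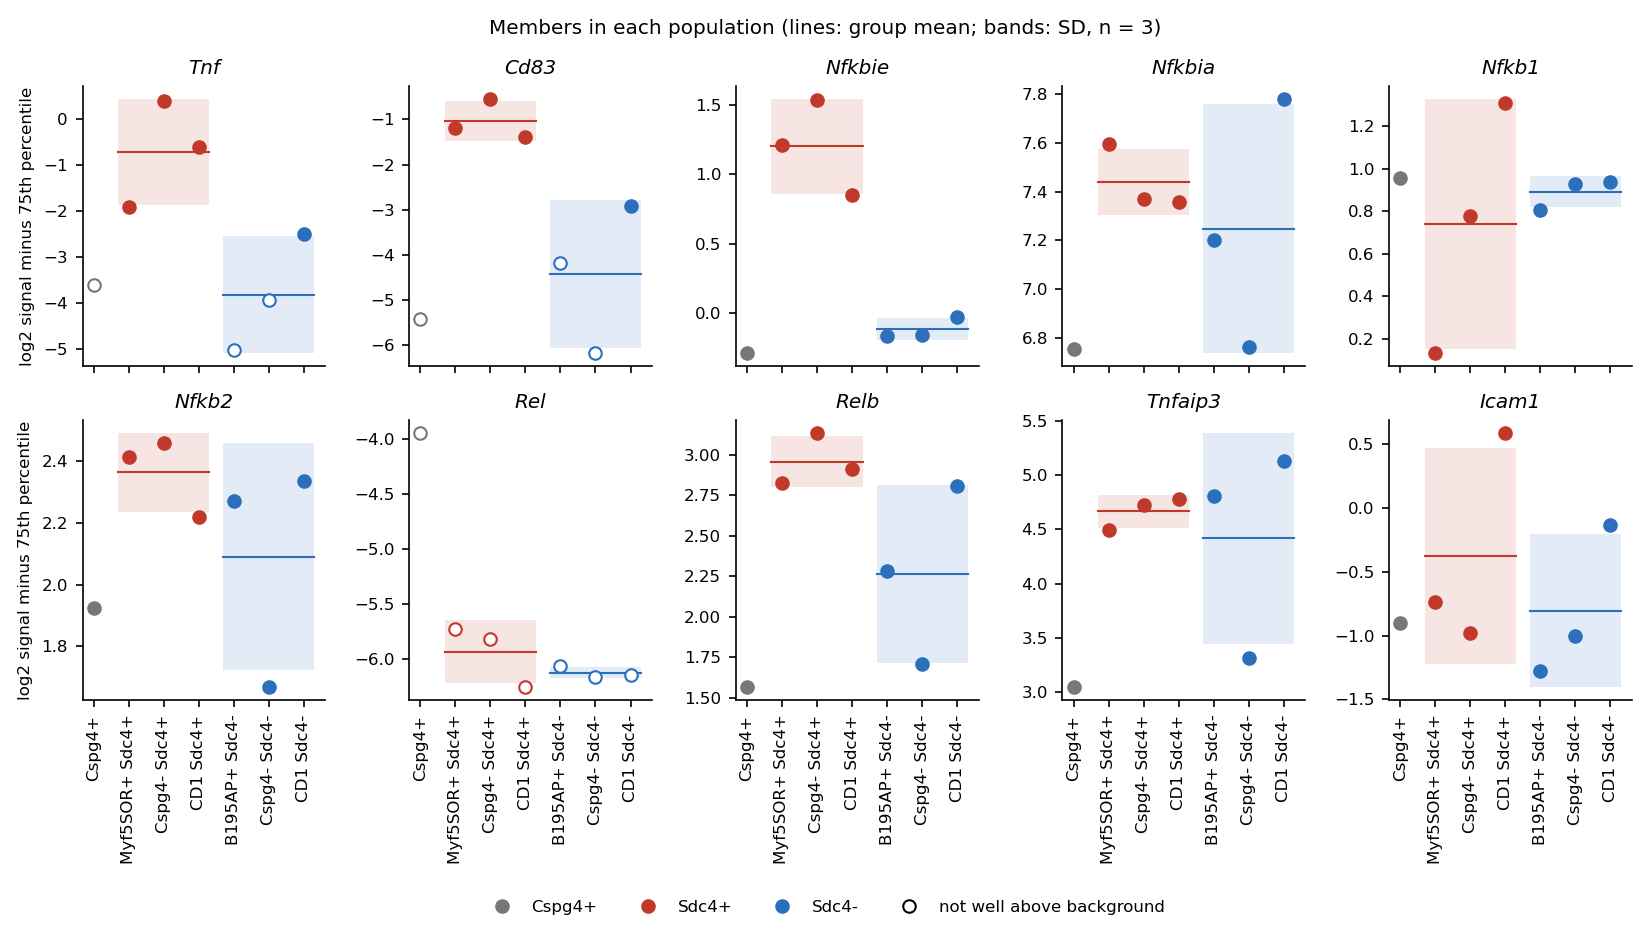
Signal of the 10 members in each of the 7 populations, as log2 intensity minus the 75th percentile of the array (y axis, a separate range for each gene). Points are arrays, horizontal lines are the means and bands the SD of the 3 Sdc4+ and of the 3 Sdc4- arrays, and open points are not well above background. Tnf, Cd83, Nfkbie and Relb have all Sdc4+ points above all Sdc4- points, and in the Sdc4- group the CD1 point is the highest in the panels of the 9 members other than Rel.

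The subunit genes lay closer together. Relb, a subunit of the alternative NF-kappaB pathway, read 2.83, 3.14 and 2.91 on the Myf5SOR+, Cspg4- and CD1 Sdc4+ arrays and 1.56 on the Cspg4+ array. It read 2.28, 1.71 and 2.80 on the B195AP+, Cspg4- and CD1 Sdc4- arrays. The groups did not overlap, but the CD1 Sdc4- array was only just below the lowest Sdc4+ array. The means were 2.96 ± 0.16 on the Sdc4+ arrays and 2.27 ± 0.55 on Sdc4- arrays (each SD over n = 3), 1.62-fold apart. Relb was 2.69-fold higher in the Sdc4+ cells of the Cspg4- line and 1.08-fold higher in those of CD1 mice. Without the Cspg4- Sdc4- array the difference of means was 0.41, against 0.69 with it.

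Relb has 3 probes (A_51_P389751, A_55_P2168736 and A_55_P2168741), and they were not of one kind. The representative probe A_51_P389751 (chr7:20191722-20191781, minus strand, mm9) and A_55_P2168736 (chr7:20191773-20191832) were designed on the RefSeq transcript and overlap by a few bases. A_55_P2168736 differed by 0.67 between the group means, again without overlap, and by 1.37 in the Cspg4- line, with a CD1 difference of 0.13. A_55_P2168741 (chr7:20203058-20203117), designed on an Ensembl transcript, differed by -0.08, with overlapping groups. The pattern of Relb thus holds for the RefSeq probes and was not seen at the third.

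Nfkb2, which encodes the p100 precursor of p52, read 2.41, 2.46 and 2.22 on the Myf5SOR+, Cspg4- and CD1 Sdc4+ arrays and 1.93 on the Cspg4+ array, against 2.27, 1.67 and 2.34 on the B195AP+, Cspg4- and CD1 Sdc4- arrays. The groups overlapped, and the Cspg4- Sdc4- and Cspg4+ arrays were the lowest. The means were 2.36 ± 0.13 on the Sdc4+ arrays and 2.09 ± 0.37 on Sdc4- arrays (each SD over n = 3), with a difference of 0.27. In the Cspg4- line the difference was 0.79, and in CD1 mice it was -0.12.

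Nfkb1, which encodes the p105 precursor of p50, gave different answers at its 2 probes. The probe with the higher mean, A_55_P1968743 (chr3:135254550-135254609, minus strand, mm9), lies upstream of the other, and its sequence is given because the Nfkb1 reading turns on the choice of probe.
Nfkb1 A_55_P1968743: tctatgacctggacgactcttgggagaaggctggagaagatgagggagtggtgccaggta
It read 0.13, 0.78 and 1.31 on the Myf5SOR+, Cspg4- and CD1 Sdc4+ arrays and 0.95 on the Cspg4+ array, against 0.81, 0.92 and 0.94 on the B195AP+, Cspg4- and CD1 Sdc4- arrays. The Sdc4+ arrays held both the lowest and the highest value, so the groups overlapped, with a difference of -0.15. A_55_P1968738 (chr3:135247621-135247680), downstream of it, read 0.20, 0.25 and 0.25 on the Myf5SOR+, Cspg4- and CD1 Sdc4+ arrays and -0.88 on the Cspg4+ array, against -0.53, -0.96 and -0.14 on the B195AP+, Cspg4- and CD1 Sdc4- arrays. Here all Sdc4+ arrays were above all Sdc4- arrays, with a difference of 0.77. In the Cspg4- line the downstream probe differed by 1.21 and the upstream probe by -0.15, so that no direction is given for Nfkb1.

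Rel encodes c-Rel, a subunit known from lymphocytes. Its probe was not well above background on any of the 7 arrays, with log2 values between -6.25 and -5.73 on the Sdc4+ arrays and -3.94 on the Cspg4+ array, against -6.16 to -6.06 on the Sdc4- arrays. No fold is given for it.

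**Figure D2:**
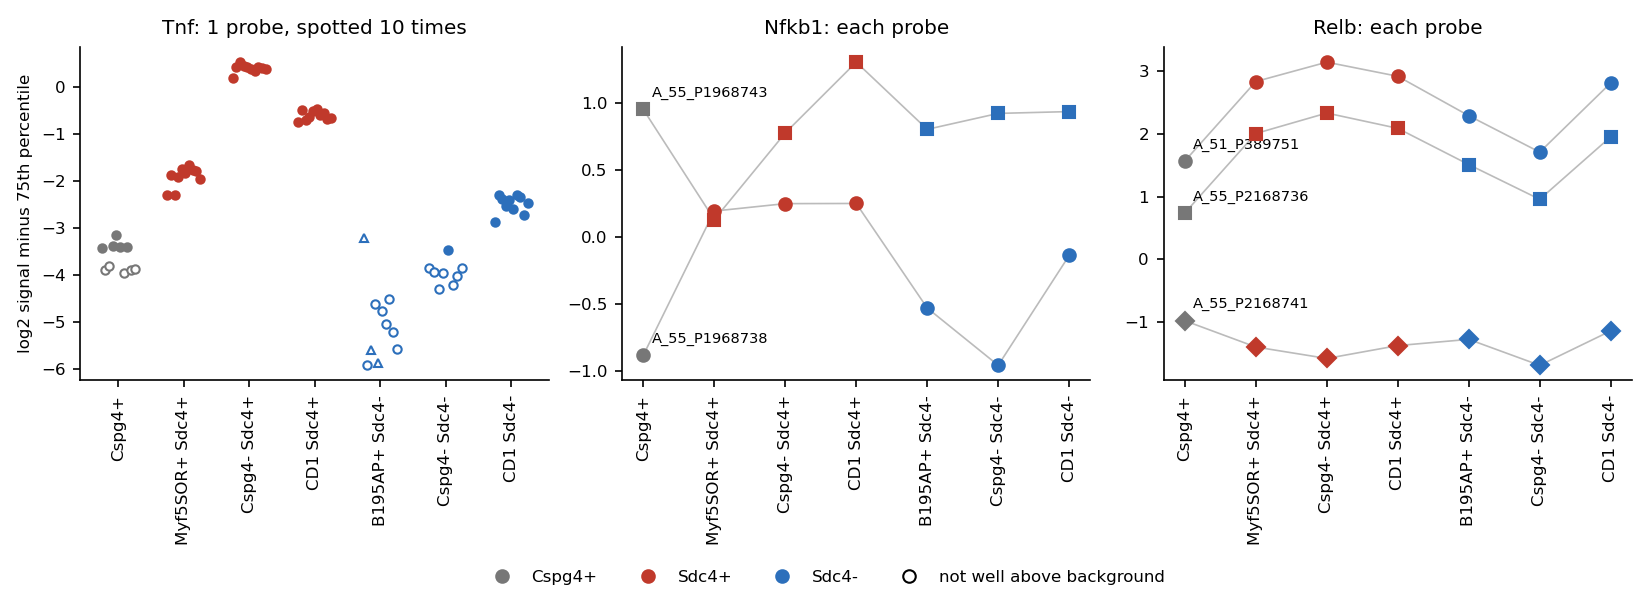
Log2 intensity minus the 75th percentile of the array (y axis) in the 7 populations, for the 10 spots of the Tnf probe (left), the 2 Nfkb1 probes (middle) and the 3 Relb probes (right), where grey lines join the values of 1 probe. Open symbols are not well above background, and triangles mark B195AP+ spots inside the streaked region. Tnf spots of an array cluster together outside B195AP+, A_55_P1968738 separates the groups where A_55_P1968743 does not, and the upper pair of Relb probes share a pattern that A_55_P2168741 lacks.

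Among the inhibitors, Nfkbie, which encodes IkappaB-epsilon, had separate groups. It read 1.21, 1.54 and 0.85 on the Myf5SOR+, Cspg4- and CD1 Sdc4+ arrays and -0.29 on the Cspg4+ array. On the B195AP+, Cspg4- and CD1 Sdc4- arrays it read -0.17, -0.16 and -0.03. The Sdc4- arrays and the Cspg4+ array lay within a narrow band below every Sdc4+ array. The means were 1.20 ± 0.35 on the Sdc4+ arrays and -0.12 ± 0.08 on Sdc4- arrays (each SD over n = 3), 2.50-fold apart. Nfkbie was 3.26-fold higher in the Sdc4+ cells of the Cspg4- line and 1.84-fold higher in those of CD1 mice. With its B195AP+ spot, which lies in the streaked region, left out, the difference of means was 1.30, against 1.32 with it.

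Nfkbia encodes IkappaB-alpha, the classical inhibitor that is rapidly made again after NF-kappaB activation. It read 7.60, 7.37 and 7.36 on the Myf5SOR+, Cspg4- and CD1 Sdc4+ arrays and 6.75 on the Cspg4+ array, against 7.20, 6.76 and 7.78 on the B195AP+, Cspg4- and CD1 Sdc4- arrays. The highest array was CD1 Sdc4-, and the groups overlapped. In processed intensity the probe gave between 19108 and 46605 units, with no saturated spot. The Nfkbia means were 7.44 ± 0.14 on the Sdc4+ arrays and 7.25 ± 0.51 on Sdc4- arrays (each SD over n = 3). The difference was 0.61 in the Cspg4- line and -0.43 in CD1 mice.

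Tnfaip3 encodes A20, a ubiquitin-editing enzyme that ends TNF receptor signalling. It read 4.50, 4.72 and 4.78 on the Myf5SOR+, Cspg4- and CD1 Sdc4+ arrays and 3.05 on the Cspg4+ array, against 4.81, 3.31 and 5.13 on the B195AP+, Cspg4- and CD1 Sdc4- arrays. The Sdc4+ arrays were close to each other, while the Sdc4- arrays spanned both sides of them. Tnfaip3 averaged 4.67 ± 0.15 on the Sdc4+ arrays and 4.42 ± 0.97 on Sdc4- arrays (each SD over n = 3). It was 2.66-fold higher in the Sdc4+ cells of the Cspg4- line and 1.27-fold lower in those of CD1 mice. Leaving out the Cspg4- Sdc4- array turned the difference of means to -0.30, against 0.25 with it.

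Of the target genes, Cd83, which encodes a surface protein of activated dendritic cells and B cells, read -1.19, -0.54 and -1.39 on the Myf5SOR+, Cspg4- and CD1 Sdc4+ arrays and -5.42 on the Cspg4+ array. It read -4.18, -6.18 and -2.92 on the B195AP+, Cspg4- and CD1 Sdc4- arrays. The groups did not overlap, and as for Tnf only the CD1 array of the Sdc4- group was well above background. Cd83 averaged -1.04 ± 0.44 on the Sdc4+ arrays and -4.43 ± 1.64 on Sdc4- arrays (each SD over n = 3). With dim arrays set as for Tnf, it was 5.59-fold higher on the Sdc4+ arrays, against a difference of means of 3.39 that rests partly on background values. By such a floored fold Cd83 was 10.4-fold higher in the Sdc4+ cells of the Cspg4- line. As measured, it was 2.88-fold higher in those of CD1 mice. Under the alternatives the log2 differences were as low as 1.68 in the Cspg4- line and 0.65 in CD1 mice. The floored fold between the groups lay between 4.71-fold (without the Cspg4- Sdc4+ array) and 6.89-fold (without the CD1 Sdc4- array). With normexp background correction the difference of means was 1.11.

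Icam1, which encodes an adhesion molecule for leukocytes, read -0.74, -0.98 and 0.59 on the Myf5SOR+, Cspg4- and CD1 Sdc4+ arrays and -0.90 on the Cspg4+ array, against -1.28, -1.0 and -0.13 on the B195AP+, Cspg4- and CD1 Sdc4- arrays. Both CD1 arrays were above all others, and the groups overlapped. Icam1 averaged -0.38 ± 0.84 on the Sdc4+ arrays and -0.81 ± 0.60 on Sdc4- arrays (each SD over n = 3). The difference was 0.02 in the Cspg4- line and 0.72 in CD1 mice.

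Counted over the 9 measured members, 4 had all Sdc4+ arrays above all Sdc4- arrays (Tnf, Cd83, Nfkbie and Relb), and 0 had them below. Over all 19758 genes the shares were 6.13% above and 9.72% below. The means were at least 2-fold higher on the Sdc4+ arrays for 3 of the 9 (Tnf, Cd83 and Nfkbie), against 3.47% of all genes. These signals chose the members, and Tnf and Cd83 passed the filter on 4 arrays of which 3 were Sdc4+, so nothing is read from the count. The number of members with all Sdc4+ arrays above was 3, without Relb, under quantile normalization, in the deposited series table and with the mean of all probes of a gene. Without the CD1 Sdc4+ array 5 members had all Sdc4+ arrays above (Nfkb2 was added) and 1 below (Nfkb1, at its upstream probe). Without the CD1 Sdc4- array 6 were above (Nfkbia and Icam1 were added) and 0 below. Without both CD1 arrays 7 were above and 1 (Nfkb1, at its upstream probe) below. Groups of fewer arrays separate more easily, and the shares of all genes are not given for these settings, so nothing is read from the larger counts. With the Myf5SOR+ and B195AP+ arrays left out, the differences of means were 1.29 for Nfkbie and 0.77 for Relb. With dim arrays floored they were 3.10 for Tnf and 2.45 for Cd83. With the Cspg4- Sdc4+ and Cspg4- Sdc4- arrays left out, the differences were 1.13 for Nfkbie and 0.32 for Relb. With dim arrays floored they were 1.85 for Tnf and 2.04 for Cd83. This last alternative was added after the data were seen.

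Within the Cspg4- line, 5 of the 9 members were at least 2-fold higher in the Sdc4+ cells (Tnf, Cd83, Nfkbie, Relb and Tnfaip3), against 4.91% of all genes, and 0 of the 9 at least 2-fold lower, against 3.85% of all genes. Within CD1 mice, 2 of the 9 were at least 2-fold higher (Tnf and Cd83), against 1.98% of all genes, and 0 of the 9 lower, against 2.65%. In both lines, 2 of the 9 (Tnf and Cd83) were at least 2-fold higher, against 0.567% of all genes. Under the alternatives the CD1 log2 differences fell as low as 0.93 for Tnf and 0.65 for Cd83, which is under 2-fold. In the Cspg4- line the differences of Tnf and Cd83 rest on a background value. Any positive difference in both lines was present in 5 of the 9 (Tnf, Cd83, Nfkbie, Relb and Icam1), against 26.8% of all genes. The signs in the lines were opposite for 4 of the 9 (Nfkbia, Nfkb1, Nfkb2 and Tnfaip3), against 41.9% of all genes. The difference was smaller in CD1 mice than in the Cspg4- line for 7 of the 9, against 55.7% of all genes. These comparisons have 1 array on each side and no replicate check. They use signals that were known when the members were picked, so nothing is read from the counts.

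The members shared parts of their order over the arrays. The CD1 array was the highest of the Sdc4- arrays for 9 of the 9, against 19.4% of all genes. The Cspg4- Sdc4+ array was the highest of all 7 for 5 of the 9 (Tnf, Cd83, Nfkbie, Nfkb2 and Relb), against 9.67% of all genes. The Cspg4- Sdc4- or the Cspg4+ array was the lowest of the 7 for 6 of the 9 (Cd83, Nfkbie, Nfkbia, Nfkb2, Relb and Tnfaip3), against 25.1% of all genes, though for Cd83 neither these arrays nor the B195AP+ array were well above background. The members belong to 1 pathway and were chosen together, so they are not independent of each other.

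**Figure D3:**
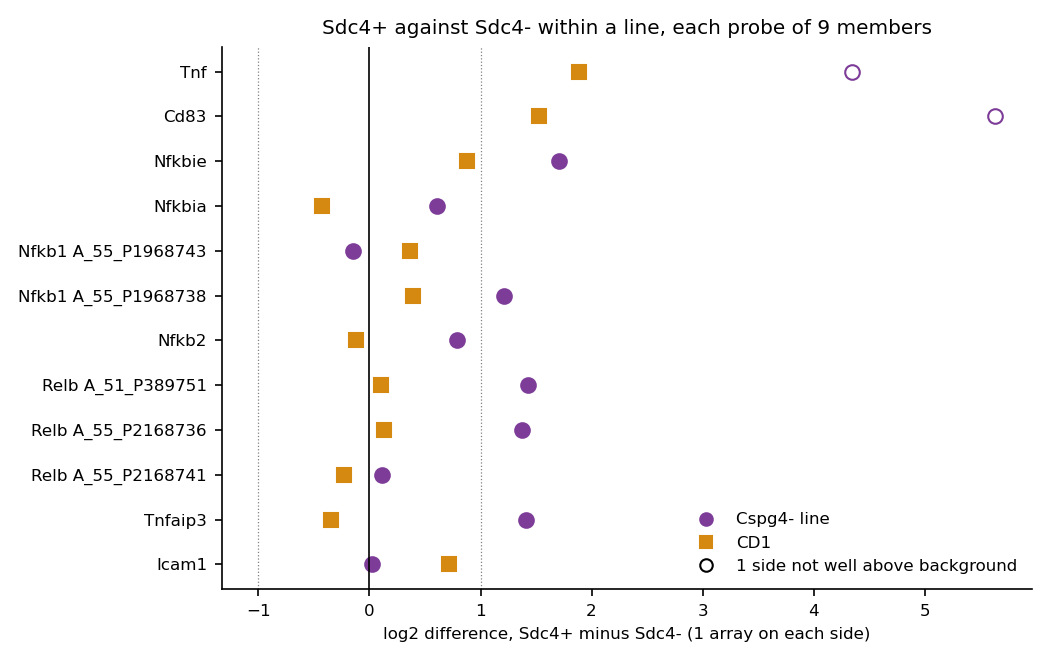
Log2 difference between the Sdc4+ and the Sdc4- array (x axis) within the Cspg4- line (circles) and within CD1 mice (squares), for each probe of the 9 measured members (rows), with dotted lines at 2-fold. Each point compares 1 array with 1 array, so there is no error bar, and open points have 1 side not well above background. In the Cspg4- line Tnf and Cd83 stand at 4.35 and 5.63, and in CD1 mice at 1.89 and 1.53, while the Nfkbia, Nfkb2 and Tnfaip3 symbols fall on opposite sides of 0.

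Cspg4+ cells came from the same line as the Cspg4- Sdc4- cells, and 7 of the 9 members were measured on both arrays. Of these 7, 0 were at least 2-fold apart, against 5.51% of all genes. The differences were -0.13 for Nfkbie, -0.01 for Nfkbia, -0.14 for Relb, -0.27 for Tnfaip3, 0.26 for Nfkb2, 0.03 for Nfkb1 and 0.10 for Icam1. Tnf and Cd83 were not well above background on either array. Against the Cspg4- Sdc4+ array, 5 of the 9 were at least 2-fold lower in Cspg4+ cells, against 4.86% of all genes. They are the same 5 that were at least 2-fold higher in the Sdc4+ cells within this line. The signals of that Sdc4+ array were known when the members were picked, so nothing is read from the count. By floored folds Tnf was 16.2-fold lower and Cd83 9.29-fold lower. As measured, Nfkbie was 3.57-fold, Tnfaip3 3.20-fold and Relb 2.97-fold lower. The floored folds of Tnf and Cd83 hold for the reported processing only. The Cspg4+ array has no replicate.

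The populations present on 1 side only can be set against the others of their group. The Myf5SOR+ array was below the mean of the other Sdc4+ arrays by a log2 difference of -1.81 for Tnf and -0.91 for Nfkb1. For the other measured members it was within 0.55 log2 units of that mean. The B195AP+ array differed from the mean of the other Sdc4- arrays by -0.71 for Icam1 and 0.59 for Tnfaip3, whose spot lies in the streaked region. Tnf, not well above background there, was 1.43-fold lower by a floored fold.

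The other genes of the circuit were taken from lists of receptors and ligands, kinases and adaptors, negative regulators, remaining subunits and inhibitors, secreted targets, survival and surface targets, and mRNA decay factors. The lists were chosen with earlier results of these data known. Of 148 list genes on the array, 123 were measured. In limma, with Benjamini-Hochberg adjustment over all 19758 genes, 0 list genes and 0 genes in all passed the threshold of 0.05. At an unadjusted p under 0.05, 8 list genes were higher and 2 lower on the Sdc4+ arrays, while 3.28% of all genes were higher and 5.42% lower. Without overlap between the groups, 8 list genes were higher and 11 lower on the Sdc4+ arrays, against 6.13% and 9.72% of all genes. The median difference was 0.10 for the 123 genes and -0.06 for all genes. In the Cspg4- line it was 0.19 against 0.01, and in CD1 mice -0.01 against -0.05. Between the Cspg4- arrays 19 list genes were at least 2-fold higher and 3 at least 2-fold lower in the Sdc4+ cells, against 4.91% and 3.85% of all genes. In CD1 mice 4 list genes were at least 2-fold higher and 5 lower, against 1.98% and 2.65% of all genes. By the sign of the difference of means alone, 8578 of all 19758 genes were higher and 11180 lower. Because the arrays of a group differ in mouse line, the p-values measure that spread too. Of the list genes named here, Bcl2a1d was well above background on 3 of the 7 arrays, Tlr1, Tlr6 and Sigirr on 4, Csf3 on 5, and Mmp9 and Ripk2 on 6, so their differences rest partly on background values.

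Of the other family members, Nfkbid, which encodes a nuclear IkappaB, differed by 1.61 ± 0.53 (SE; limma adjusted p = 0.516). Its difference was 3.17 in the Cspg4- line and 0.61 in CD1 mice. Nfkbib, which encodes IkappaB-beta, differed by 1.30 in the Cspg4- line, with a CD1 difference of -0.22. Rela, the p65 subunit, differed by 0.11 between the group means, and its difference was 0.40 within the Cspg4- line but -0.10 within CD1 mice. Nfkbiz and Bcl3, atypical nuclear IkappaB genes, differed by -0.30 and 0.10 between the group means. The limma adjusted p-values of Nfkbib, Rela, Nfkbiz and Bcl3 lay between 0.671 and 0.915, so none of these 5 genes passed. The same split as for Tnfaip3, a positive difference in the Cspg4- line and a negative one in CD1 mice, was thus present in Nfkbib and Rela.

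Among the 23 measured survival and surface targets, 13 were higher and 10 lower, and 0 passed. Irf1, an interferon-regulatory transcription factor, read 5.68, 5.68 and 5.78 on the Myf5SOR+, Cspg4- and CD1 Sdc4+ arrays and 3.42 on the Cspg4+ array, against 4.20, 3.68 and 4.95 on the B195AP+, Cspg4- and CD1 Sdc4- arrays. The groups did not overlap, with a difference of 1.44 ± 0.33 (SE; limma adjusted p = 0.436). Gadd45b, a stress and survival gene, differed by 1.87 in the Cspg4- line, with a CD1 difference of -0.09 (limma adjusted p = 0.561 between the groups). Ier3, an early response gene, differed by -1.01 between the group means, also without overlap (limma adjusted p = 0.516). Bcl2a1d, an anti-apoptotic BCL2 relative, differed by 1.50 (limma adjusted p = 0.596). In this list 2 genes were higher and 5 lower without overlap, against 6.13% and 9.72% of all genes.

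Among the 20 measured secreted targets, 12 were higher and 8 lower, and 0 passed. Csf3, which encodes granulocyte colony-stimulating factor, was the one with the smallest p, and it was lower on the Sdc4+ arrays by -2.08 ± 0.50 log2 units (SE; limma adjusted p = 0.454), without overlap, with -1.74 in the Cspg4- line and -1.87 in CD1 mice. Saa3, an acute-phase gene, differed by 1.36 (limma adjusted p = 0.565). Csf1, the macrophage growth factor gene, differed by 0.72, and Mmp9, a matrix protease gene, by -1.23, with limma adjusted p-values of 0.575 and 0.629. In the Cspg4- line the median of this list was 0.68. There 7 genes were at least 2-fold higher and 1 at least 2-fold lower in the Sdc4+ cells, against 4.91% and 3.85% of all genes. In CD1 mice the median was -0.31, with 1 gene higher and 3 lower, against 1.98% and 2.65% of all genes.

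Upstream of NF-kappaB, of 31 measured kinases and adaptors, 15 were higher and 16 lower, and 0 passed. Ripk2, the kinase of the NOD receptors, differed by 1.16 ± 0.31 (SE; limma adjusted p = 0.483), without overlap, and by 1.10 in the Cspg4- line, with a CD1 difference of 1.27. Malt1 and Bcl10, partners in the complex that activates NF-kappaB downstream of antigen receptors, differed by 1.21 and 0.42, and Tirap, a Toll-like receptor adaptor, by -0.43, with limma adjusted p-values of 0.530, 0.603 and 0.603. The groups did not overlap for Bcl10 and Tirap. In this list 2 genes were higher and 4 lower without overlap, against 6.13% and 9.72% of all genes. Of 21 measured receptors and ligands, 11 were higher and 10 lower, and 0 passed. Tlr6 differed by 0.74, Tlr2 by 0.95, the interleukin-1 receptor subunit Il1rap by 0.45 and Tlr1 by -0.62, with limma adjusted p-values of 0.575 to 0.665. All are sensors or receptor chains that feed into NF-kappaB, and the groups did not overlap for Il1rap.

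Of 16 measured negative regulators, 9 were higher and 7 lower, and 0 passed. Cyld, a deubiquitinase that restrains NF-kappaB, differed by 0.86 ± 0.31 (SE; limma adjusted p = 0.531), without overlap, with 0.64 in the Cspg4- line and 0.77 in CD1 mice. Commd1 differed by -0.38 without overlap, Irak3 by 0.71 and Sigirr by -0.83, with limma adjusted p-values of 0.692 to 0.719. Of 7 measured mRNA decay genes, 6 were higher and 1 lower, and 0 passed. Zc3h12a, which encodes the endonuclease Regnase-1, differed by 0.96 ± 0.24 (SE; limma adjusted p = 0.476), without overlap. Zfp36, which encodes tristetraprolin, a protein that destabilises Tnf mRNA, differed by 1.31 in the Cspg4- line, with a CD1 difference of -0.03. Zfp36l2 differed by 0.38 and Elavl1, an mRNA-stabilising protein gene, by -0.20 between the group means.

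**Figure D4:**
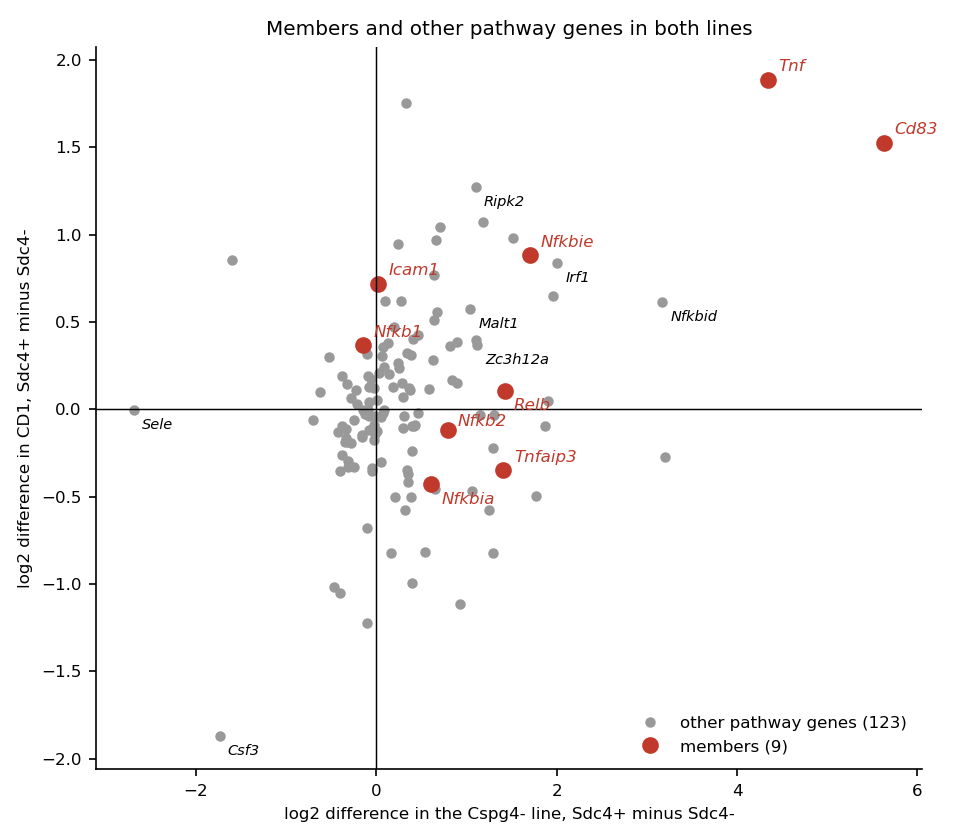
Log2 difference between the Sdc4+ and the Sdc4- array in the Cspg4- line (x axis) and in CD1 mice (y axis), 1 array on each side, for the 9 measured members (red) and 123 other genes of the circuit (grey). Tnf and Cd83 stand apart at the upper right, Nfkbia, Nfkb2 and Tnfaip3 lie right of 0 and below it, and most grey points lie near the centre. Tnf and Cd83 are not well above background on the Cspg4- Sdc4- array, so their x positions rest on a background value.

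The mean of the centred values of the 9 members ran from 0.84 on the Cspg4- Sdc4+ array, over 0.75 on the CD1 Sdc4+ array, 0.40 on the Myf5SOR+ array and 0.24 on the CD1 Sdc4- array, to -0.51 on the B195AP+ array, -0.81 on the Cspg4+ array and -0.91 on the Cspg4- Sdc4- array. Over the 7 arrays, the Pearson correlation of a member with the mean of the others was 0.96 for Relb, 0.95 for Cd83, 0.83 for Nfkbie, 0.82 for Tnf, 0.79 for Nfkb2, 0.74 for Nfkbia, 0.68 for Tnfaip3, 0.48 for Icam1 and -0.12 for Nfkb1. Nfkb1, read at its upstream probe, was thus the member least like the rest. Its downstream probe, which separated the groups, was not used for this correlation. The 7 points share a slide and the Sdc4 label, and the members were chosen on it, so these values are descriptions. The genes outside all lists with the most similar pattern were Icam2 (r = 0.98), an adhesion molecule gene, Zfp819 (r = 0.98), Amotl2 (r = 0.97), Sgms2 (r = 0.97) and Coq10b (r = 0.96), each over 7 arrays.

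Macrophages and dendritic cells are known sources of TNF and CD83, and their markers were read on the same arrays. Of 17 macrophage and monocyte markers, 5 to 7 had signal well above background on each Sdc4+ array, 9 on the Cspg4+ array and 7 to 8 on each Sdc4- array. Their summed level, in units of the 75th percentile, was 41.2 to 59.7 on the Sdc4+ arrays, 45.7 on the Cspg4+ array and 41.5 to 65.9 on the Sdc4- arrays. The marker Itgam was the largest term of this sum on every array, so the sum says little about the other markers. Ptprc, Lyz2, C1qa, C1qc, Mrc1 and Cd163 were not well above background on any array. Of 8 dendritic and Langerhans cell markers, 2 to 3 had such signal on each Sdc4+ array and 3 on the others. Their sums were 1.20 to 1.43 on the Sdc4+ arrays and 0.58 to 1.23 on the Sdc4- arrays. Batf3 was the largest term on every array, so these sums mainly follow Batf3 and say little about the other markers. Ccr7, Cd209a and Xcr1 were not well above background on any array. The part of dendritic cells in the Cd83 signal was not tested.

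Other markers also differed between these arrays. Cd79b, a B cell receptor gene, read -0.77 on the Cspg4- Sdc4+ array, against -5.98 on the Cspg4- Sdc4- array. Mast cell markers summed to 4.11 on the Cspg4- Sdc4+ array and 2.61 on the CD1 Sdc4- array, and to between 0.44 and 2.25 on the other 5 arrays. Skeletal muscle markers went the other way, with sums of 0.14 to 0.35 on the Sdc4+ arrays and 0.61 on the Cspg4+ array, against 3.03 to 17.1 on the Sdc4- arrays. Immediate early and stress genes summed to 103 on the Myf5SOR+, 239 on the Cspg4- and 126 on the CD1 Sdc4+ array, against 223 to 249 on the Sdc4- arrays. These sums add levels before log2, and Jun was the largest term on every array, so they mainly follow Jun. The genes of this list did not share a direction between the group means. Jun, Egr1, Fos and Ier2 were lower on the Sdc4+ arrays, while Fosb, Hspa1a, Atf3, Junb and, only slightly, Dusp1 were higher. Atf3, a stress-induced transcription factor gene, differed by 2.12 in the Cspg4- line, with a CD1 difference of -0.07, and Hspa1a, a heat shock gene, by 2.55 and -0.10. The part of these cells and of stress in the members' signals was not tested.

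The differences of means held their sign for Tnf, Cd83, Nfkbie, Nfkb2 and Relb under every setting tried that gave a value. Those of Nfkbia, Nfkb1, Tnfaip3 and Icam1 did not. Nfkbie spanned 0.97 to 1.54 and Relb 0.32 to 0.99, while Tnf spanned 1.18 to 3.78 and Cd83 1.11 to 4.32, values that rest partly on background. The low end of Tnf and Cd83 was the value with normexp background correction.

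**Figure D5:**
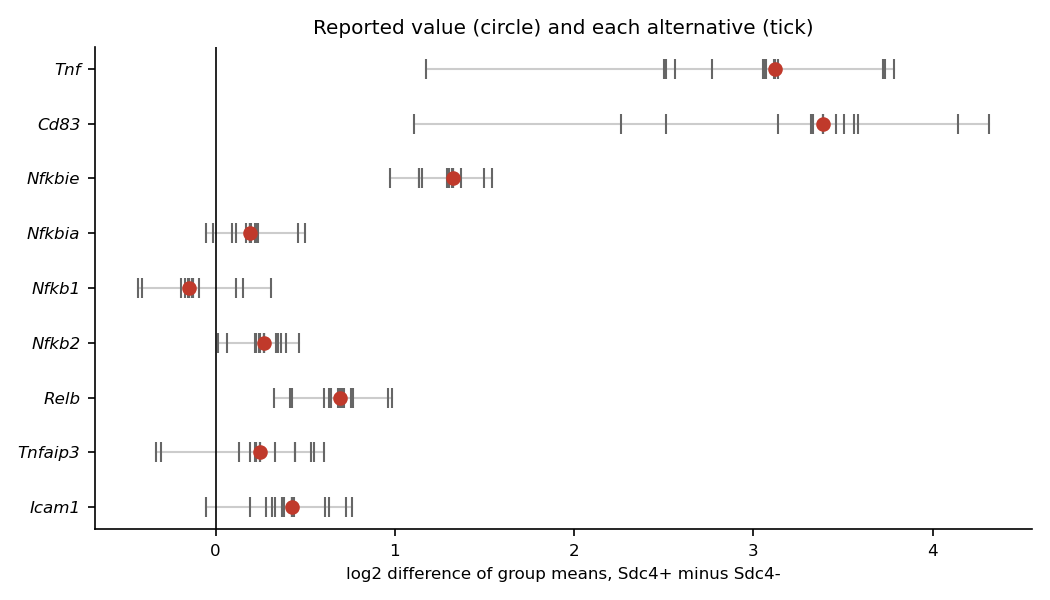
Difference of the group means in log2 units, Sdc4+ minus Sdc4- (x axis), for the 9 measured members (rows). Circles are the reported values, ticks the values under other processing settings or with arrays left out, and the grey line joins the lowest and the highest. All ticks of Tnf, Cd83, Nfkbie, Nfkb2 and Relb lie right of 0, and those of Nfkbia, Nfkb1, Tnfaip3 and Icam1 lie on both sides of it.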

How the data were processed

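The deposited files of the 7 arrays hold the fluorescence intensity of each spot as written, per the file headers, by version 11.5.1.1 of Agilent's Feature Extraction software, with background subtracted and no normalization between arrays; the labels name biotin, the files 1 green channel. Flags for well above background, outlier and saturation are other columns of the deposited files. The file headers place the probes on mm9. A deposited table of the whole series gives log2 values (medians 5.15 to 5.17), and lumi is named in the submitters' processing notes. Its values rank as the intensities do, but how it was centred is not stated, so it served as an alternative.

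Control spots were dropped, outlier spots set to missing, log2 intensity reduced by the array's 75th percentile, and spots averaged per probe. A probe was kept if well above background (over 50% of its spots) on at least 3 of the 7 arrays, and the probe with the highest mean stood for a gene. Of 55681 probes, 27656 were named through the RefSeq table, 1711 of them under another symbol. A model with 3 group means was fitted to all genes with limma 3.58.1 under R 4.3.3, with Benjamini-Hochberg adjustment, a procedure tested on simulated data. Tables and figures used Python 3.11.15, pandas 2.3.3 and matplotlib 3.10.9.

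The members and lists were chosen with earlier results of these data known. Named were the members, the other Rel and IkappaB genes, up to 4 genes per list with the smallest limma p, the 5 genes outside the lists with the most similar pattern, and up to 4 markers per cell type. Alternatives were normexp correction, quantile normalization, the series table, the dim-probe filter, the mean of all probes, leaving out the streaked region or arrays, the mouse line as a block, and array weights.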

Additional observations from a re-analysis of the deposited data

Results flagged for a closer look

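For 4 of the 9 measured members the Sdc4+ array was above the Sdc4- array in 1 line and below it in the other. Opposite signs were present in 41.9% of all genes, so nothing is read from the count. Each line has 1 array on each side, and the difference between the lines was not tested. For Nfkbia the log2 difference was 0.61 in the Cspg4- line but -0.43 in CD1 mice. For Nfkb2 it was 0.79 in the Cspg4- line but -0.12 in CD1 mice. For Tnfaip3 it was 1.41 in the Cspg4- line but -0.35 in CD1 mice. Nfkb1, at its upstream probe, went the other way round, with -0.15 in the Cspg4- line and 0.37 in CD1 mice.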

How the results depend on the processing

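Of 264 member values recomputed under an alternative, 254 moved by less than the spread between arrays and 10 by more. No population has a replicate, so this spread includes the mouse line, and some of the 254 changed sign. Requiring probes above background on all 7 arrays removes Tnf and Cd83. Then 2 of the 7 members left (Nfkbie and Relb) were without overlap and 3 were at least 2-fold higher in the Cspg4- line. The shares of all genes are not given for this filter, so nothing is read from these counts. Without both CD1 arrays 8 members were without overlap, of which 7 were higher and 1 lower on the Sdc4+ arrays. Groups of fewer arrays separate more easily, and the share of all genes is not given for that setting. Nfkbia turned to -0.05 without the Cspg4- Sdc4- array and to -0.02 without both Cspg4- arrays, where Tnfaip3 was -0.33. Nfkb1 turned to 0.31 with the mean of its probes, 0.15 without the Myf5SOR+ array and 0.11 without the Myf5SOR+ and B195AP+ arrays, and Icam1 to -0.05 without the CD1 Sdc4+ array. The limma count of genes past the threshold was 0, with 0 to 1 when single arrays were left out (1 unnamed probe, without the CD1 Sdc4- array) and 5 with the line as a random block (Fcgr3, Ifitm10, Myh3, Tchhl1 and an unnamed transcript). Counts at an unadjusted p under 0.05 were 649 higher and 1070 lower, with 335 and 550 without both Cspg4- arrays and 1219 and 1843 with the random block. The count of list genes past the threshold was 0 under every setting run. With the line as a fixed block, which pairs the Cspg4- arrays and the CD1 arrays, 0 genes passed, and 840 were higher and 1076 lower at an unadjusted p under 0.05; every label reads replicate 1, so the numbers pair no samples. Signals near background limit Tnf, Cd83 and Rel.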
